A study of Arabidopsis thaliana with 39 samples.

Results

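The set described here holds 9 cytosolic chaperone genes of Arabidopsis thaliana, chosen by their locus identifiers: HSP101 (AT1G74310), HSP90.1 (AT5G52640), HSP90.2 (AT5G56030), HSP90.3 (AT5G56010), HSP70-1 (AT5G02500), HSP70-2 (AT5G02490), HSP70-3 (AT3G09440), HSP70-4 (AT3G12580) and HSP70B (AT1G16030). They are 9 of 27444 nuclear protein-coding genes in the count files, and all 9 were found there. HSP101 is a ring-shaped disaggregase that pulls proteins out of aggregates together with HSP70. HSP70 proteins bind exposed hydrophobic stretches of unfolded clients, and HSP90 proteins act later, on clients such as kinases and receptors that are close to their folded state. In plants some members of both families are made at all times and others mainly under heat, and seeds store transcripts and proteins of the heat-inducible kind when they dry.

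Secondary dormancy (SD) is a dormancy that germination-competent seeds enter under unfavourable conditions, here darkness and warmth. Polyadenylated RNA was sequenced from its 3′ ends, single seeds carried their own barcodes, and transcripts were counted by unique molecular identifiers (UMIs). Levels are given as CPM, the normalized UMIs of a gene per 1000000 nuclear protein-coding UMIs of its library. In the time course, after-ripened Col-0 seeds were taken after 1 h of imbibition at 22 °C (1h). Others were taken after 1, 3, 5 and 7 days of SD induction on wet paper in the dark at 30 °C (1d, 3d, 5d and 7d). A further group had 7 days of induction followed by a recovery of 24 h in light (7d24h). By the study's methods recovery was at 22 °C, so light and temperature changed together. A pool-split control held 7d seed extracts that were mixed and divided again before barcoding. A second experiment set dog1-4, a mutant of the dormancy gene DOG1, against Col-0 at 3d and at 7d24h, and the last compared untreated dry seed pools of dog1-4 and Col-0. All seeds had been after-ripened by dry storage, each group had 3 libraries of 32 seeds or 3 dry pools, and seeds were whole, so that fewer cells of a type and less RNA per cell cannot be told apart. Time-course libraries were batches of a shared seed pool, dry pools combined seeds of 2 plants each, and the seed pools behind the dog1-4 and Col-0 libraries are not given in the labels, so p-values of the 2 single-seed experiments measure the spread between batches of seeds and may be technical.

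The kept seeds of a library held 731423 to 3132901 UMIs on nuclear protein-coding genes in the time course and 1737013 to 4993365 in the dog1-4 experiment. Dry pools ranged between 836376 and 3378782 counts. The share of UMIs outside these genes differed between time points, with medians of 55.5% at 1h, 21.7% at 1d, 67.7% at 3d, 74.5% at 5d, 28.4% at 7d, 21.9% at 7d24h and 52.2% in the pool-split control, and its part in the time-course results was not tested. All 14 markers of seed storage (cruciferins, albumins, oleosins, tonoplast and Em proteins) had more than 3 counts in every group. DOG1 had 16, 11 and 28 UMIs in the dog1-4 libraries at 3d, against 93, 190 and 234 in Col-0, with gaps in the same direction at 7d24h and in dry seeds. One library, dog1-4 3d replicate 3, held 22358 UMIs of 7 green-tissue markers against 91 and 74 in the other dog1-4 3d libraries, with at most 18.4% of them in a single seed, and results that rest on it are given with and without it.

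Heat shock factors bind repeats of the unit GAA in alternating orientation, and the genome around each start was searched for 3 such units in a row (GAANNTTCNNGAA or TTCNNGAANNTTC) and for 2 (GAANNTTC or TTCNNGAA), which together read both strands. In windows from 500 bases before to 200 after the annotated start, 3 units were found in 1.39% of 27443 genes and 2 units in 41.7% (every site of 3 holds sites of 2). The window was set after the sequences had been seen, and a match is a description of the letters only. The motifs are printed to show how alike the sites of the HSP70 genes are, in capitals within 8 bases on either side, 5′ to 3′ on the strand of the gene (RefSeq, TAIR10.1):
HSP90.1, 295 bases before the start, chr5:21352254-21352282, plus strand: aacgaaaaGAACTTTCTGGAAttcgtttg
HSP70-1, 49 bases after the start in the untranslated leader, chr5:556554-556582, minus strand: caaccatcGAACATTCTCGAAacatttta
HSP70-2, 121 bases after the start in the untranslated leader, chr5:552686-552714, minus strand: taattacaGAACATTCTGGAAactcaagt
HSP70-3, 33 bases after the start in the untranslated leader, chr3:2905894-2905922, minus strand: atcgaaccGAACATTCTCGAAccttttta
HSP70-3, 162 bases after the start in the untranslated leader, chr3:2905765-2905793, minus strand: gagccatcGAACCTTCTCGAAactcgagt
HSP70-4, 20 bases after the start in the untranslated leader, chr3:3993846-3993874, minus strand: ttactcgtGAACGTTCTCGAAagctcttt
HSP101, 2 units only, 29 bases after the start in the untranslated leader, chr1:27940325-27940348, minus strand: aaataagcGAAAATTCcacgtgac
HSP70B, 2 units only, 59 bases after the start in the untranslated leader, chr1:5504461-5504484, minus strand: gaccttttTTCTCGAAatgtctcg
Sites of 3 units were found in 5 of the 9 genes, HSP90.1, HSP70-1, HSP70-2, HSP70-3 and HSP70-4. HSP70-1 and the first site of HSP70-3 hold the same letters in capitals. HSP90.2 and HSP90.3 held neither motif in this window.

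The members lie on 3 chromosomes and include close neighbours (TAIR10.1). HSP90.2 (chr5:22686473-22689671) and HSP90.3 (chr5:22681238-22684252) are adjacent members of one near-identical group, and HSP70-1 (chr5:553745-556623) and HSP70-2 (chr5:550035-552827) are adjacent paralogs. Only uniquely mapped reads were counted, so the division of reads within these pairs is uncertain. HSP101 (chr1:27936508-27940369) overlaps AT1G74300 on the other strand, and HSP70-3 (chr3:2902355-2905947) overlaps AT3G09430 on the other strand, but UMIs of single seeds were counted by strand. HSP90.1 (chr5:21352557-21355147), HSP70-4 (chr3:3991117-3993886) and HSP70B (chr1:5501966-5504535) overlap no annotated gene.

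The first question was how the chaperone transcripts change while imbibed seeds enter SD and when they recover. HSP101, HSP90.1, HSP70-4 and HSP70B were high at 1h, fell at 1d, rose at 3d, and 3 of these, without HSP70-4, fell again at 7d24h. HSP70-1 did the reverse at 1d and 3d. An F-test of edgeR over the 6 time points gave an adjusted p under 0.05 for 9 of 9 members, as it did for 86.9% of 8763 genes tested, and HSP70B and HSP101 ranked 15 and 22 among them. Below, a gene is said to rise or fall where its adjusted p was under 0.05 and its log2 fold change beyond 1 in size.

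At 1d against 1h, 1 member rose and 4 fell, where 31.9% of all tested genes passed this limit. At 3d against 1d, 6 rose, against 15.2% of genes, and 1 fell, against 8.19% (23.4% in either direction). At 5d against 3d none of the 9 passed, against 0.0913% of genes, with 1 member (HSP70-4) at an unadjusted p under 0.05 and 0 called by DESeq2. At 7d against 5d, 1 rose, where 1.75% of genes did, and 2 fell, where 16.2% did (18% in either direction). During recovery, at 7d24h against 7d, 3 rose, against 10.4% of genes, and 3 fell, against 8.26% (18.6% in either direction). Among the rises, HSP70-2 and HSP70-3 averaged 0.77 and 0.34 UMIs per seed at 7d and 4.5 and 3.8 at 7d24h. They averaged under 1 UMI per seed at each earlier time point, so they met the filter of 1 UMI on average through 7d24h. For both genes the 7d24h libraries overlapped those of the pool-split control of 7d extracts, and these groups were not tested against each other. Over the whole induction, at 7d against 1h, 1 rose, against 14.6% of genes, and 4 fell, against 18% (32.6% in either direction). The median log2 fold change of the 9 members was -0.69 at 1d against 1h (0.05 over all genes), 1.12 at 3d against 1d (0.02 over all genes) and 0.70 at 7d24h against 7d (0.00 over all genes).

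**Figure D1:**
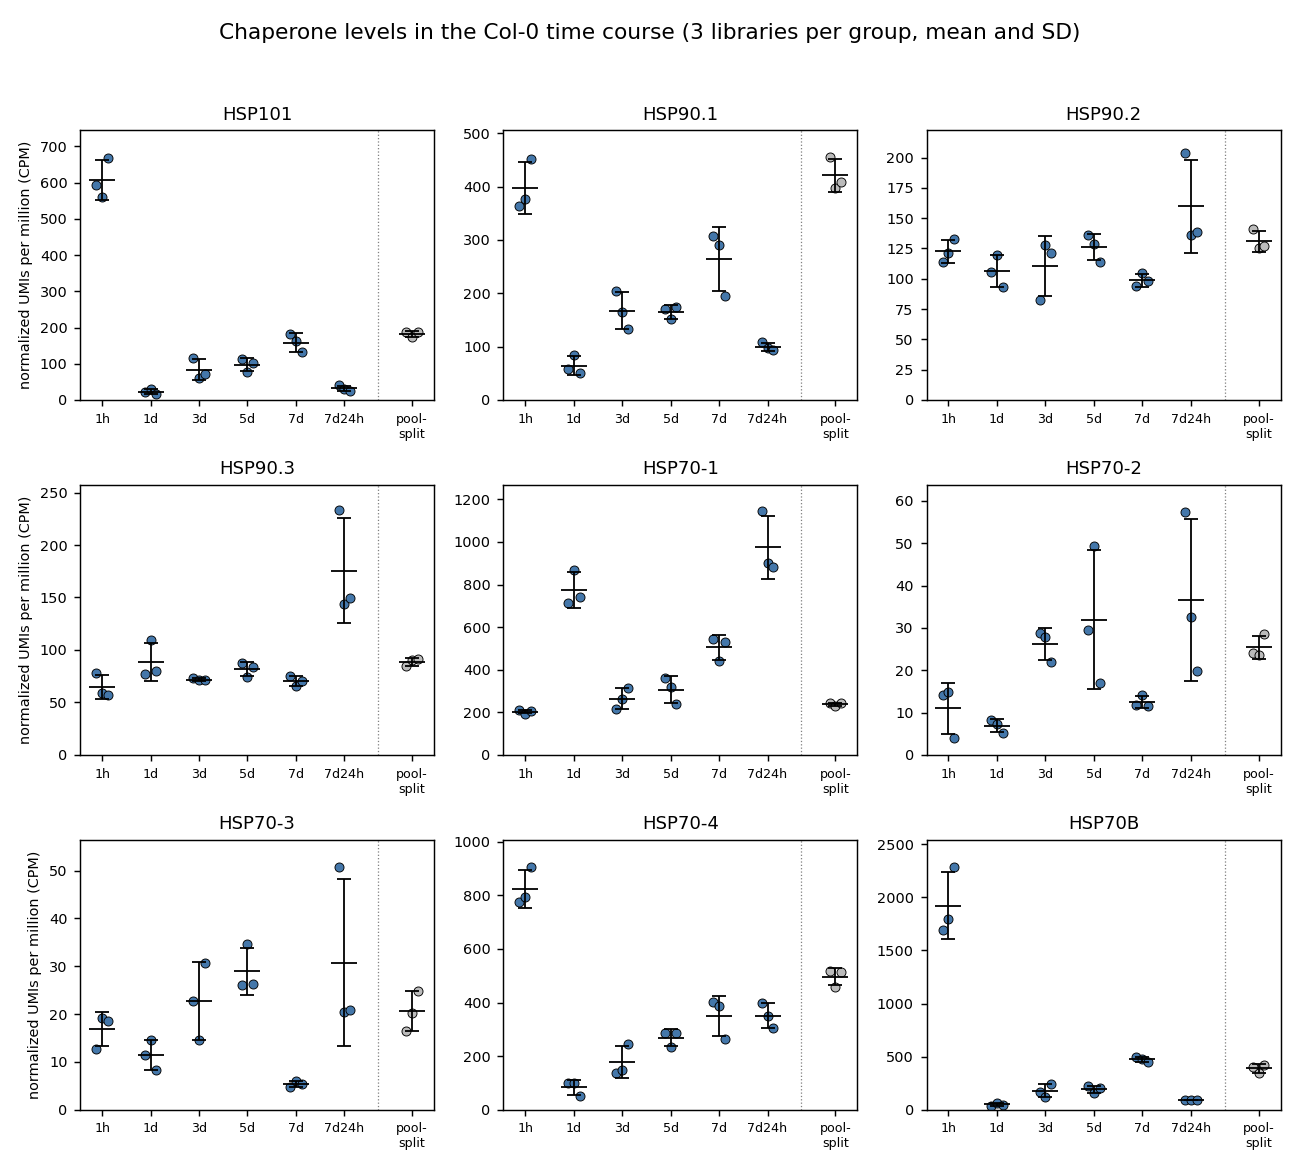
Levels of the 9 chaperone genes in normalized CPM (y axes, linear, from 0) over the time points of the Col-0 time course (x axes), with the pool-split control right of the dotted line. Each point is a library, and bars are the mean ± SD of 3 libraries. HSP101 and HSP70B stood at 560.4 CPM or more in every 1h library and at 66.8 CPM or less in every 1d library, whereas HSP70-1 was highest at 7d24h.

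HSP101, the disaggregase, had 595, 560.4 and 669.5 CPM at 1h, 22.8, 29.8 and 16.3 CPM at 1d and 116, 60.7 and 72.9 CPM at 3d. It had 112, 76.7 and 103 CPM at 5d, 181, 163 and 131 CPM at 7d and 40.4, 31.4 and 25.6 CPM at 7d24h. Ordered by level, the groups ran 1h, 7d, 5d, 3d, 7d24h and 1d, and the libraries of 5d and 3d and those of 7d24h and 1d overlapped. HSP101 was 26.3-fold lower at 1d than at 1h (log2 fold change -4.72 ± 0.23, adjusted p = 1.04e-13). It rose 3.53-fold at 3d against 1d (log2 fold change 1.82 ± 0.24, adjusted p = 9.5e-07). At 7d against 5d every library was higher, but the change stayed under the fold limit (log2 fold change 0.69 ± 0.21, adjusted p = 0.0103). Recovery brought a 4.83-fold fall at 7d24h against 7d (log2 fold change -2.27 ± 0.21, adjusted p = 1.01e-08), and 7d seeds still held less than 1h seeds (log2 fold change -1.95 ± 0.19, adjusted p = 1.49e-08).

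HSP90.1, the heat-inducible cytosolic HSP90, took a similar course with smaller folds. It had 363, 376 and 452 CPM at 1h, 58.5, 84.3 and 49.8 CPM at 1d, 204, 165 and 134 CPM at 3d and 169.9, 151 and 174 CPM at 5d. It then had 307, 291 and 195 CPM at 7d and 108, 97.0 and 93.2 CPM at 7d24h. Groups next to each other in time did not overlap, except 5d and 3d. HSP90.1 fell at 1d against 1h (log2 fold change -2.63 ± 0.19, adjusted p = 7.93e-11), rose at 3d against 1d (log2 fold change 1.36 ± 0.20, adjusted p = 3.45e-06) and fell at 7d24h against 7d (log2 fold change -1.40 ± 0.18, adjusted p = 1.12e-06). Its differences at 7d against 5d (log2 fold change 0.67 ± 0.19, adjusted p = 0.00582) and at 7d against 1h (log2 fold change -0.60 ± 0.18, adjusted p = 0.00672) were under the fold limit.

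HSP90.2 and HSP90.3, which are made without heat, stayed within narrow ranges up to 7d. HSP90.3 group means lay between 64.5 ± 11.7 CPM at 1h and 88.8 ± 18 CPM at 1d over the first 5 time points (SD, n = 3), and neither gene passed the limit in any step before recovery. At 7d24h HSP90.3 had 233, 144 and 149.9 CPM, against 74.9, 65.9 and 70.1 CPM at 7d. Every recovered library was above every 7d library, and HSP90.3 rose 2.49-fold (log2 fold change 1.32 ± 0.17, adjusted p = 1.08e-06). HSP90.2 had 204, 136 and 139 CPM at 7d24h, against 93.9, 104 and 97.9 CPM at 7d, with no overlap but a change under the fold limit (log2 fold change 0.70 ± 0.16, adjusted p = 0.000822). The first 7d24h library was the highest for both genes.

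HSP70B and HSP70-4 are the heat-inducible cytosolic HSP70 genes. HSP70B had 1694, 1793 and 2282 CPM at 1h, 36.1, 66.8 and 47.0 CPM at 1d and 172, 121 and 246 CPM at 3d, followed by 222, 153 and 203 CPM at 5d, 499, 475 and 446 CPM at 7d and 91.2, 89.7 and 93.4 CPM at 7d24h. Only the 3d and 5d libraries overlapped among neighbouring time points. Its 38.4-fold fall at 1d against 1h was the largest of the 9 members in that step (log2 fold change -5.26 ± 0.24, adjusted p = 4.88e-14). HSP70B rose at 3d against 1d (log2 fold change 1.88 ± 0.22, adjusted p = 1.96e-07) and was the one member to rise at 7d against 5d (log2 fold change 1.29 ± 0.21, adjusted p = 1.86e-05). It fell 5.17-fold at 7d24h against 7d (log2 fold change -2.37 ± 0.21, adjusted p = 6.25e-09). Endosperm and seed-coat markers, 4 genes, were lower in sum too, at 2881 to 4249 CPM in 1d libraries against 14126 to 14817 CPM in 1h libraries (2 of the 4 had 3 counts or fewer at 1d). Almost all of this sum was EPR1 (AT2G27380), at 3465 ± 702 CPM at 1d and 14378 ± 376 CPM at 1h (SD, n = 3). The sum therefore describes 1 gene rather than a tissue, and its part in the fall of the inducible chaperones was not tested.

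HSP70-4 had 774, 794 and 906 CPM at 1h, 101, 98.1 and 52.2 CPM at 1d and 137, 149 and 247 CPM at 3d, then 287, 232 and 287 CPM at 5d, 401, 386 and 263 CPM at 7d and 399.9, 349 and 305 CPM at 7d24h. The 1h libraries stood above all others. HSP70-4 fell at 1d against 1h (log2 fold change -3.29 ± 0.23, adjusted p = 3.89e-11) and rose at 3d against 1d (log2 fold change 1.12 ± 0.23, adjusted p = 0.000283). The rise at 3d dropped under the fold limit without 1d replicate 3 (0.87) or without 3d replicate 3 (0.77). In contrast to HSP101, HSP90.1 and HSP70B, its 7d24h and 7d libraries overlapped, with a log2 fold change of 0.01 ± 0.21 (adjusted p = 0.962). Summed seed markers were 35812 to 40225 CPM in 7d24h libraries against 120476 to 148336 CPM in 7d libraries, alongside the fall of HSP101, HSP90.1 and HSP70B, and their part in it was not tested.

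HSP70-1, the main constitutive HSP70 of the cytosol, had 211, 194 and 204 CPM at 1h, 712, 870.0 and 739.6 CPM at 1d and 214, 263 and 313 CPM at 3d. It had 361, 319 and 239 CPM at 5d, 546, 439.7 and 528 CPM at 7d and 1147, 902 and 880.1 CPM at 7d24h. The 1d and 7d24h libraries were the highest 6, and those of 1h were the lowest 3. HSP70-1 was the one member that rose at 1d against 1h (3.81-fold, log2 fold change 1.93 ± 0.16, adjusted p = 9e-10) and the one that fell at 3d against 1d (log2 fold change -1.54 ± 0.16, adjusted p = 2.42e-08). It was higher in every library at 7d than at 5d (log2 fold change 0.73 ± 0.16, adjusted p = 0.000626) and at 7d24h than at 7d (log2 fold change 0.95 ± 0.15, adjusted p = 1.95e-05), both under the fold limit. Over the induction as a whole it rose 2.49-fold at 7d against 1h (log2 fold change 1.32 ± 0.16, adjusted p = 3.83e-07). The pool-split control, made from 7d seed extracts, did not share this level: its 3 libraries had 243, 228 and 241 CPM, above every 1h library but below every 7d library and within or below the 5d range.

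HSP70-2 and HSP70-3, further cytosolic HSP70 genes of the constitutive kind, were low. HSP70-2 had 8.35, 7.25 and 5.18 CPM at 1d, 28.9, 27.7 and 22.0 CPM at 3d, 29.5, 49.5 and 16.9 CPM at 5d, 11.9, 14.2 and 11.5 CPM at 7d and 57.4, 32.6 and 19.9 CPM at 7d24h. HSP70-3 had 11.4, 14.5 and 8.36 CPM at 1d, 22.8, 14.5 and 30.8 CPM at 3d, 26.1, 34.6 and 26.2 CPM at 5d, 4.76, 6.08 and 5.44 CPM at 7d and 50.9, 20.4 and 20.9 CPM at 7d24h, the 7d values resting on 8, 6 and 18 UMIs. For both genes every 7d library lay below every 5d and 7d24h library. HSP70-2 rose at 3d against 1d (log2 fold change 1.86 ± 0.43, adjusted p = 0.000946), fell at 7d against 5d (log2 fold change -1.33 ± 0.41, adjusted p = 0.0108) and rose at 7d24h against 7d (log2 fold change 1.59 ± 0.35, adjusted p = 0.000727). HSP70-3 did the same, with a rise at 3d (log2 fold change 1.07 ± 0.36, adjusted p = 0.019), a fall at 7d (log2 fold change -2.41 ± 0.42, adjusted p = 5.76e-05) and a rise at 7d24h (log2 fold change 2.52 ± 0.37, adjusted p = 6.7e-06). The low level at 7d was not seen in the pool-split control of 7d extracts. The control had 24.0, 23.7 and 28.5 CPM of HSP70-2, within the 5d range. It had 16.5, 20.3 and 24.9 CPM of HSP70-3, below every 5d library but above every 7d library. For both genes the 7d24h libraries overlapped those of the control, so the rises at 7d24h were seen against the 7d libraries only. The rise of HSP70-3 at 3d did not hold without 1d replicate 3 (0.89) or 3d replicate 3 (0.69), and the fall of HSP70-2 at 7d did not hold without 5d replicate 2 (-0.89, adjusted p = 0.128 by edgeR).

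Over the 18 time-course libraries without the control, the members fell into groups by their correlation of log2(CPM + 1). HSP101 had a Pearson r of 0.98 with HSP70B, 0.97 with HSP90.1 and 0.79 with HSP70-4, and -0.77 with HSP70-1. HSP70-1 had an r of 0.74 with HSP90.3. These are descriptions over libraries that share time points and depth. Of all genes tested, those with the highest r with HSP101 were AT2G20560 (0.99), the small heat shock protein HSP26.5 (AT1G52560, 0.98), HSP17.4 (AT3G46230, 0.98), HSP70B and the small heat shock protein HSP17.6C (AT1G53540, 0.97). HSP90.1 was nearest to HSP26.5 (0.97), AT2G20560 (0.97), the transcription factor subunit NF-YA1 (AT5G12840, 0.97), HSP101 and HSP17.6C (0.96). HSP70-1 was nearest to AT1G27400 (0.98), AT2G31610 (0.98), AT5G16130 (0.97), PGY1 (AT2G27530, 0.97) and RPL5B (AT5G39740, 0.97), the last pair being proteins of the large ribosomal subunit.

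Partner genes were counted in the same way. Small heat shock proteins, as a family, hold unfolded clients. They fell at 1d against 1h in 9 of 9 tested genes (15 listed, median log2 fold change -4.62, against 0.05 over all genes). They rose at 3d against 1d in 8 of 9, rose at 7d against 5d in 1 and fell at 7d24h against 7d in 9 of 9 (median -2.32, against 0.00 over all genes). The largest changes were those of HSP17.6A (AT5G12030) at 1d (106 ± 34.5 CPM, against 9223 ± 1572 CPM at 1h, log2 fold change -6.44) and at 3d (3.87), and of HSP22.0 (AT4G10250) at 7d (1.75) and at 7d24h (-3.21). Among 18 cytosolic co-chaperones and holding partners, 4 fell at 1d (most BAG6, AT2G46240, -3.46), 3 rose at 3d and 2 rose at 7d (most HOP3, AT4G12400, which links HSP70 and HSP90, 2.07 and 1.22) and 5 fell at 7d24h (most HSA32, AT4G21320, -2.53). Of 11 tested organellar and endoplasmic reticulum relatives, 4 rose and 2 fell at 1d, led by HSP90.7 (AT4G24190), the HSP90 of the endoplasmic reticulum (4.79), and by CLPB4 (AT2G25140), the mitochondrial relative of HSP101 (-1.81). None rose and 3 fell at 3d (most HSP90.7, -1.72), and 4 rose and 1 fell at 7d24h (BIP2, AT5G42020, 2.05, and CLPB4, -1.03). Of 5 tested heat shock factors (21 listed), HSFA9 (AT5G54070), the factor of developing seeds, fell at 1d (-4.42), rose at 3d (1.65) and fell at 7d24h (-1.71), where 1 other factor also fell. No gene of these 4 lists was called at 5d against 3d or at 7d against the pool-split control. At 7d against 1h the calls were 6 falls among small heat shock proteins (most HSP17.6B, AT2G29500, -2.93), 2 rises and 2 falls among co-chaperones (SGT1A, AT4G23570, 2.03, and FES1A, AT3G09350, -2.06), 2 rises among the relatives (most HSP90.7, 3.50) and the fall of HSFA9 (-2.54).

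One seed departed from its group at 1d, and it was singled out after its values had been seen. It was taken as the seed with the most HSP70B, so its first rank for that gene was fixed by the choice. This seed of the second 1d library held 78255 UMIs of protein-coding genes, against a median of 76333 over the 96 seeds of the group. It was the highest of all 96 for 7 of the 9 members, HSP70B counted among the 7. Its HSP70B level was 1291 CPM, where the next seed had 113 CPM and the median seed 37.0 CPM. HSP70-4 reached 1406 CPM in it (next 354, median 56.9 CPM), HSP90.1 792 CPM (next 138, median 50.9 CPM) and HSP101 307 CPM (next 113, median 15.2 CPM). HSP90.2 and HSP70-3 were also highest there, at 332 and 192 CPM, and HSP90.3 by a narrow margin, at 217 CPM against 216 CPM in the next seed. HSP70-1, at 677 CPM, was rank 59. Without this seed the second library had 29.2 CPM of HSP70B in place of 66.8 CPM, 5 members were called at 1d against 1h (HSP70B -5.68) and 7 at 3d against 1d (HSP70B 2.29).

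**Figure D2:**
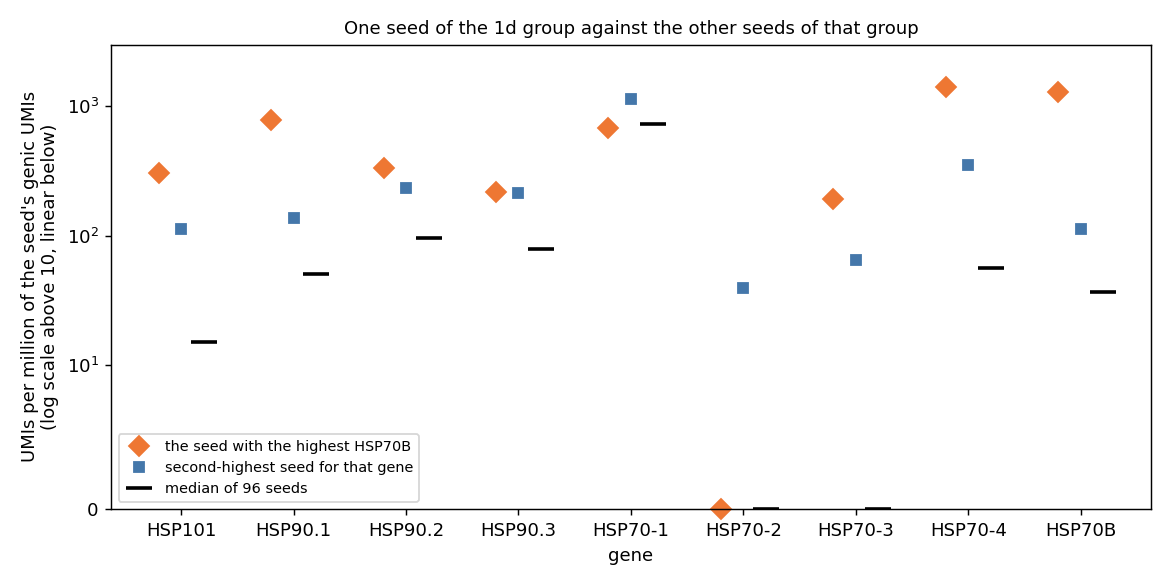
Levels of the 9 chaperone genes (x axis) in single seeds at 1d, in CPM of the seed's protein-coding UMIs (y axis, logarithmic above 10 and linear below). Diamonds are the 1 seed with the most HSP70B, squares the second-highest seed for each gene and dashes the median of 96 seeds. HSP70B was 1291 CPM in that seed and 113 CPM in the next, whereas HSP70-1 was below its median there.

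The pool-split control asks how much of the variation between wells arises from the procedure. In levels, 1 member was higher at 7d than in the control, as were 0.365% of genes, and 1 was lower, as were 5.44% (5.81% in either direction). HSP70-1 had 546, 439.7 and 528 CPM at 7d, against 243, 228 and 241 CPM in the control (log2 fold change 1.09 ± 0.16, adjusted p = 8.95e-05), and HSP70-3 had 4.76, 6.08 and 5.44 CPM, against 16.5, 20.3 and 24.9 CPM (log2 fold change -1.91 ± 0.41, adjusted p = 0.00326). HSP90.1 was lower in every 7d library than in the control (307, 291 and 195 CPM, against 456, 398 and 409 CPM), under the fold limit (log2 fold change -0.68 ± 0.18, adjusted p = 0.0113). HSP101 (log2 fold change -0.21 ± 0.19, adjusted p = 0.545) and HSP70B (log2 fold change 0.28 ± 0.20, adjusted p = 0.412) did not pass the test. HSP101 libraries overlapped, whereas every 7d library of HSP70B (499, 475 and 446 CPM) was above every control library (405, 342 and 421 CPM).

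For variation, the squared coefficient of variation between wells was taken above that expected from counting alone, for the 7 members with enough UMIs. HSP70B had an excess of 0.153, 0.0875 and 0.152 in the 7d libraries, against 0.0012, 0.038 and -0.00129 in the control. HSP70-1 had 1.18, 0.155 and 0.161 at 7d, against 0.0375, -0.000425 and 0.0305 in the control, and its mean of 0.497 ± 0.587 (SD, n = 3) rested on the first library. For these 2 genes the groups did not overlap (exact two-sided permutation test, p = 0.1, the smallest that 3 against 3 libraries allow, 0.35 after adjustment over 7 genes). HSP101 had a mean excess of 0.102 ± 0.0621 at 7d and 0.0162 ± 0.0329 in the control (SD, n = 3 each, exact p = 0.2). HSP90.2 showed none at 7d (-0.00339 ± 0.0497, against 0.0101 ± 0.0118 in the control). With every well thinned to 5000 UMIs, 3 members could be examined and the groups of 1, HSP90.1, did not overlap. Without 7d replicate 2, which leaves fewer libraries that could overlap, the groups did not overlap for 4 of the 7 genes. How many of all genes showed no overlap was not determined, so these counts are descriptions only.

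**Figure D3:**
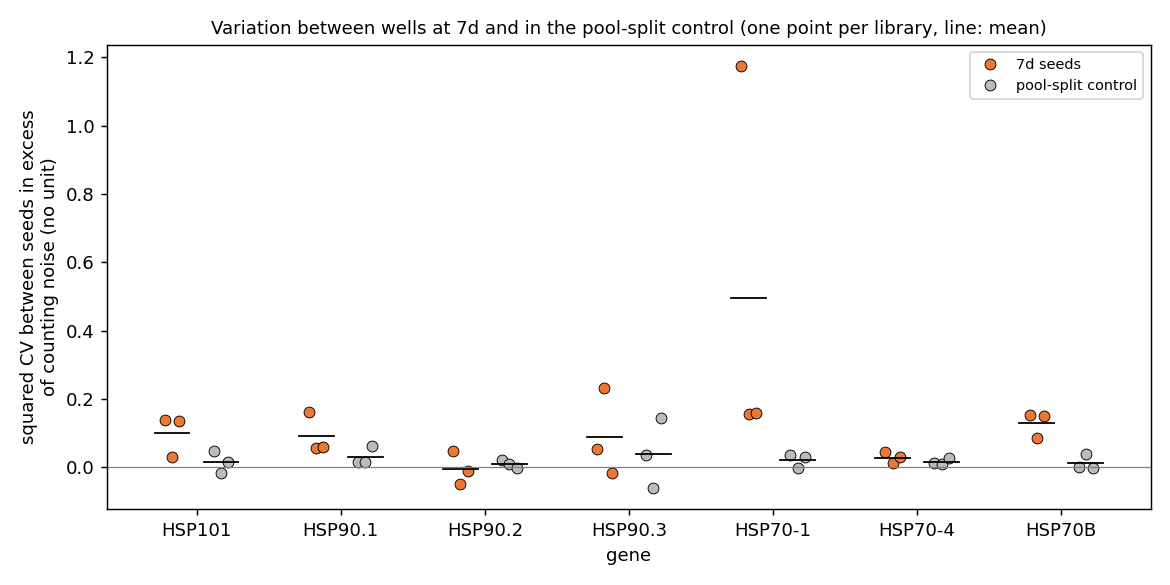
Squared coefficient of variation between wells in excess of counting noise (y axis, no unit, linear) for 7 chaperone genes (x axis). Each point is a library, with 7d seeds left of the pool-split control for each gene, and lines are means of 3 libraries. HSP70B was at 0.0875 or more in all 7d libraries and at 0.038 or less in the control, and 1 library of HSP70-1 stood at 1.18.

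The second experiment asked what the loss of DOG1 changes. At 3d none of the 9 members was called different between dog1-4 and Col-0 (edgeR), where 1.01% of 11019 genes tested were called. At an unadjusted p under 0.05 there was 1 member, HSP101, and DESeq2 called 0. HSP101 had 135, 101 and 53.3 CPM in dog1-4, against 225, 179 and 156 CPM in Col-0, with every mutant library below every wild-type one but a difference that did not pass the test (log2 fold change -0.97 ± 0.41, adjusted p = 0.214). Without the library with green-tissue transcripts its log2 fold change was -0.65 (adjusted p = 0.484). With a term for replicate number in the fit it was -1.04 and passed (adjusted p = 0.0171). HSP70B had 309, 245 and 163 CPM in dog1-4, against 351, 316 and 314 CPM in Col-0 (log2 fold change -0.46 ± 0.25, adjusted p = 0.338). Summed seed markers were 126404 to 248158 CPM in dog1-4 libraries at 3d, against 296669 to 349983 CPM in Col-0, without overlap, and their part in these values was not tested.

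At 7d24h, after recovery, 2 members were higher in dog1-4 than in Col-0, against 4.17% of genes, and 2 were lower, against 5.86% (10% in either direction). HSP101 had 15.3, 9.32 and 4.36 CPM in dog1-4, against 124, 69.3 and 54.8 CPM in Col-0. The groups did not overlap, and HSP101 was 8.89-fold lower in the mutant (log2 fold change -3.15 ± 0.47, adjusted p = 0.00098). HSP70B had 96.7, 62.9 and 65.7 CPM in dog1-4, against 417, 269 and 254 CPM in Col-0, and was 4.18-fold lower (log2 fold change -2.06 ± 0.26, adjusted p = 0.000576). Col-0 at 7d24h in the time course, scaled separately, had 91.2, 89.7 and 93.4 CPM of HSP70B, within this dog1-4 range. Its HSP101, at 40.4, 31.4 and 25.6 CPM, lay below Col-0 and above dog1-4 here. HSP90.1 showed 69.5, 62.4 and 30.3 CPM in dog1-4, against 97.9, 79.9 and 71.8 CPM in Col-0. The groups did not overlap, but the difference did not pass the test (log2 fold change -0.63 ± 0.29, adjusted p = 0.109). HSP70-4 overlapped, with 613, 607 and 331 CPM in dog1-4 and 583, 535 and 539.9 CPM in Col-0 (log2 fold change -0.10 ± 0.21, adjusted p = 0.743). Summed seed markers were 14710 to 17853 CPM in dog1-4 libraries at 7d24h, against 48401 to 74075 CPM in Col-0, and green-tissue markers were 229 to 406 CPM in dog1-4, against 109.7 to 126 CPM in Col-0. The part of either list in these differences was not tested.

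HSP70-2 and HSP70-3 ran the other way. HSP70-3 had 174, 191 and 109.5 CPM in dog1-4 at 7d24h, against 29.7, 60.6 and 68.8 CPM in Col-0, and was higher (log2 fold change 1.57 ± 0.35, adjusted p = 0.00711). HSP70-2 had 118, 125 and 66.1 CPM in dog1-4, against 24.1, 59.9 and 58.1 CPM in Col-0 (log2 fold change 1.1 ± 0.33, adjusted p = 0.0232), a call that was lost without Col-0 replicate 1 (0.80), dog1-4 replicate 1 (1.00) or dog1-4 replicate 2 (0.94), with adjusted p up to 0.0814. Every dog1-4 library was above every Col-0 library for both genes. HSP90.2 had 465, 465 and 401 CPM in dog1-4, against 182, 242 and 264 CPM in Col-0, and HSP90.3 had 407, 419 and 292 CPM, against 164, 224 and 240.4 CPM. Neither overlapped, and both had an adjusted p under 0.05 with a change under the fold limit (HSP90.2 0.95 ± 0.16, adjusted p = 0.00155, and HSP90.3 0.83 ± 0.19, adjusted p = 0.00756). HSP70-1 had 2409, 2284 and 1849.6 CPM in dog1-4 and 1648, 1917 and 2109.5 CPM in Col-0, with overlap (log2 fold change 0.21 ± 0.23, adjusted p = 0.496).

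**Figure D4:**
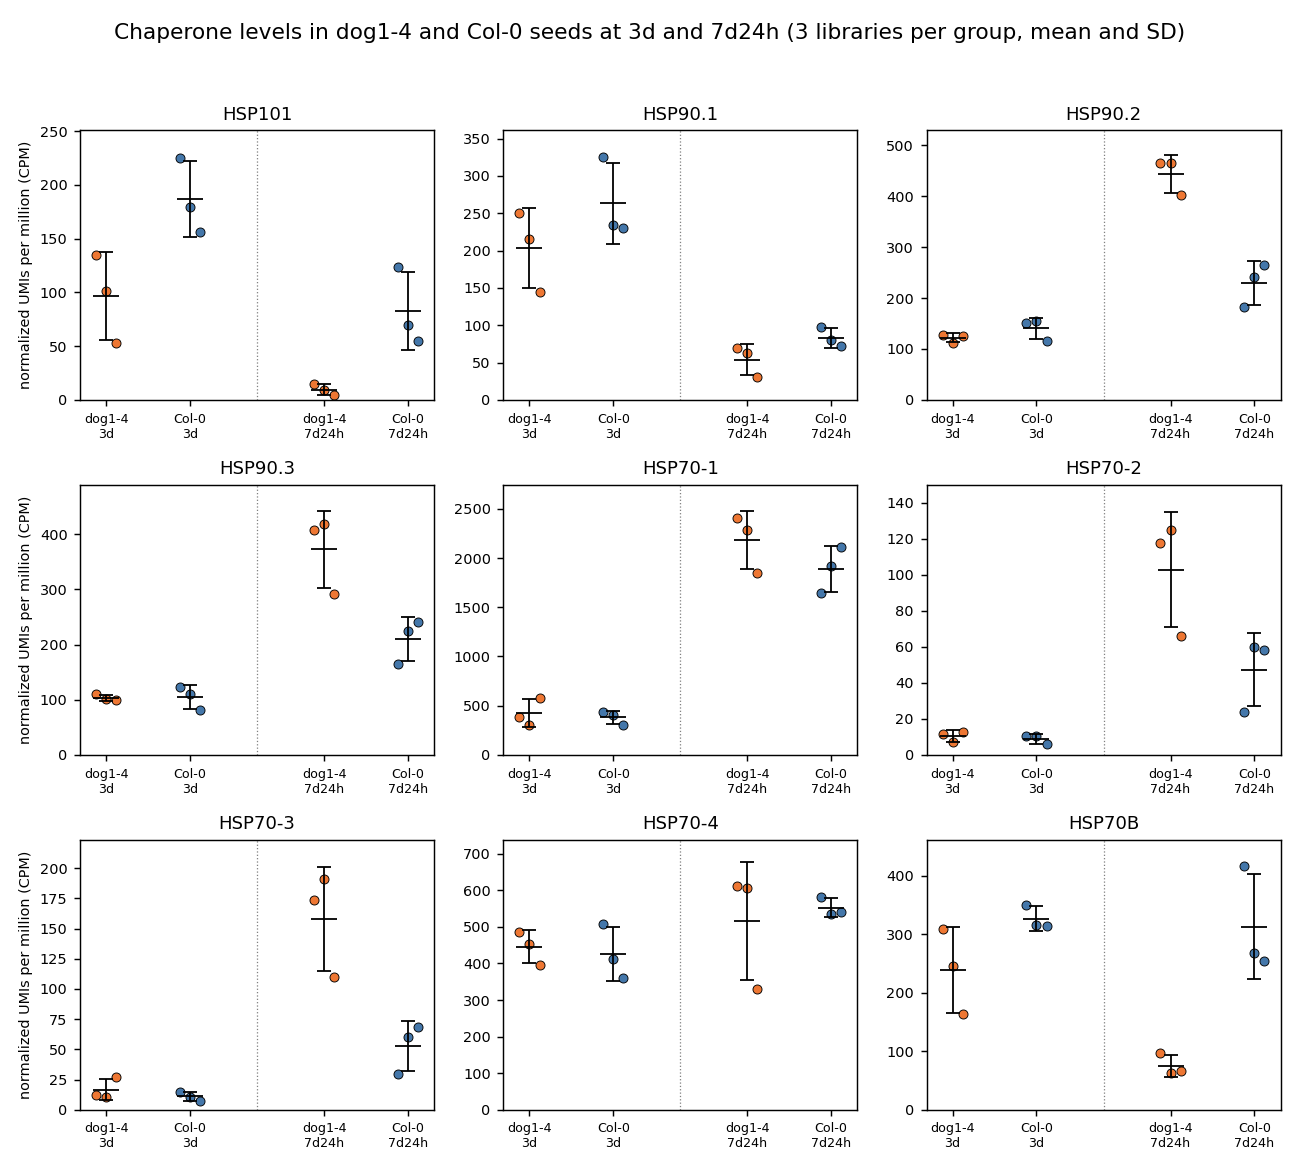
Levels of the 9 chaperone genes in normalized CPM (y axes, linear, from 0) in dog1-4 (orange) and Col-0 (blue) seeds at 3d and, right of the dotted line, at 7d24h. Each point is a library, and bars are the mean ± SD of 3 libraries. At 7d24h the dog1-4 libraries lay at or under 15.3 CPM for HSP101, where Col-0 libraries had at least 54.8 CPM, and above all Col-0 libraries for HSP90.2, HSP90.3, HSP70-2 and HSP70-3.

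Within each genotype the chaperones were also compared over recovery. In dog1-4, 5 members rose and 3 fell at 7d24h against 3d, where 33.6% of genes passed the limit. In Col-0 4 rose, where 13.4% of genes did, and 2 fell, where 8.39% did (21.8% in either direction). HSP101 fell in dog1-4 (10.3-fold, log2 fold change -3.36 ± 0.47, adjusted p = 7.68e-05) and in Col-0 (2.27-fold, log2 fold change -1.18 ± 0.41, adjusted p = 0.0303), the Col-0 call being lost without Col-0 3d replicate 1 (-1.02) or 2 (-1.21) and without Col-0 7d24h replicate 2 (-1.07) or 3 (-0.96), with adjusted p up to 0.114. HSP90.1 fell in both (log2 fold change -1.92 ± 0.30, adjusted p = 0.000159 in dog1-4, log2 fold change -1.66 ± 0.29, adjusted p = 0.000772 in Col-0). HSP70B fell in dog1-4 (log2 fold change -1.67 ± 0.26, adjusted p = 0.000162) but its libraries overlapped in Col-0 (log2 fold change -0.06 ± 0.25, adjusted p = 0.852). Without TMM scaling the log2 fold changes of all genes over recovery shifted up by 0.63 in Col-0 and by 0.50 in dog1-4. HSP70-1 rose 5.16-fold in dog1-4 and 4.97-fold in Col-0. HSP70-2 (3.26 ± 0.40 in dog1-4, 2.40 ± 0.42 in Col-0) and HSP70-3 (3.16 ± 0.40 in dog1-4, 2.27 ± 0.43 in Col-0) rose on the log2 scale in both. At 3d these genes averaged 0.485 to 1.15 UMIs per seed, so they met the filter of 1 UMI on average mainly through 7d24h. HSP90.3 rose in dog1-4 (1.84 ± 0.20) and, at the fold limit, in Col-0 (1.00 ± 0.20, down to 0.85 and under the limit without Col-0 3d replicate 3 or Col-0 7d24h replicate 2 or 3), and HSP90.2 rose in dog1-4 (1.86 ± 0.16). Without dog1-4 3d replicate 3 the same 8 members were called in dog1-4, with rises of 1.76 (HSP90.3) to 3.72 (HSP70-3) and falls of -1.94 (HSP70B), -2.18 (HSP90.1) and -3.76 (HSP101). When genes over a limit of 0.3 on the correlation with UMIs outside nuclear protein-coding genes were left out, 3 falls turned round, HSP101 in Col-0 (0.31) and HSP90.1 (0.36) and HSP70B (0.62) in dog1-4. Summed seed markers were 14710 to 17853 CPM at 7d24h and 126404 to 248158 CPM at 3d in dog1-4, and 48401 to 74075 CPM at 7d24h and 296669 to 349983 CPM at 3d in Col-0, and their part in these changes was not tested.

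The interaction tested whether the change from 3d to 7d24h differed between genotypes, and 1 member was called higher, as were 0.799% of genes, and 1 lower, as were 3.28% (4.07% in either direction). HSP70B fell more in dog1-4 than in Col-0 (log2 fold change -1.61 ± 0.36, adjusted p = 0.0262), a call lost when 1 library was left out in 8 of 12 fits, each Col-0 3d library, Col-0 7d24h replicates 1 and 2, dog1-4 3d replicate 2 and dog1-4 7d24h replicates 2 and 3 (-1.35 to -1.71, adjusted p up to 0.0771). HSP90.2 rose more in dog1-4 (log2 fold change 1.16 ± 0.22, adjusted p = 0.0155) and was called in all 12. For HSP101 the interaction missed the threshold (log2 fold change -2.18 ± 0.61, adjusted p = 0.0558). With a term for replicate number in the fit it passed (-2.11, adjusted p = 0.00199). It also passed without dog1-4 3d replicate 3, the library with green-tissue transcripts (-2.57, adjusted p = 0.00426), without Col-0 7d24h replicate 3 (-2.40, adjusted p = 0.0413) or without dog1-4 7d24h replicate 1 (-2.64, adjusted p = 0.043). Without the library with green-tissue transcripts HSP70B was at -1.87 and HSP90.2 at 1.14, both called.

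Among the seeds of one group at 7d24h, members also differed together. In Col-0 the Spearman rho between HSP70-1 and HSP70B over 96 seeds was -0.72, and in dog1-4 it was -0.62 over 96 seeds. HSP90.2 and HSP90.3 had a rho of 0.85 in dog1-4 and 0.67 in Col-0, and HSP70-1 and HSP90.3 0.83 in dog1-4 and 0.69 in Col-0. HSP101 and HSP70B had a rho of 0.64 in Col-0. In the 95 seeds of the time course at 7d24h the same pairs had -0.43 (HSP70-1 and HSP70B), 0.51 (HSP90.2 and HSP90.3), 0.57 (HSP70-1 and HSP90.3) and 0.54 (HSP101 and HSP70B). These values are descriptions, since seeds of a library share their preparation and differ in depth. The median dog1-4 seed had 10.8 CPM of HSP101 and 36 of 96 seeds had no HSP101 UMI, whereas the median Col-0 seed had 96.6 CPM and 4 of 96 had none, at a median of 1 UMI per seed in dog1-4 and 9 in Col-0.

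The spread between seeds differed by gene and genotype at 7d24h, given as the excess of the squared coefficient of variation over counting noise, a description without a test. HSP70-4, whose levels overlapped between genotypes, had an excess of 0.524, 0.756 and 0.727 in the dog1-4 libraries, against 0.0547, 0.105 and 0.0879 in the Col-0 libraries. HSP90.1 had 0.644, 0.992 and 0.637 in dog1-4, against 0.0108, 0.117 and 0.243 in Col-0. The dog1-4 libraries were above all Col-0 libraries for both genes. HSP90.2 ran the other way, with 0.419 ± 0.121 in dog1-4 and 0.906 ± 0.317 in Col-0 (SD, n = 3 each), and so did HSP70-2, with 1.63 ± 0.462 in dog1-4 and 2.50 ± 0.212 in Col-0. For HSP70-2 the median Col-0 seed had 16.7 CPM and the 90th percentile was 174 CPM, and 24 of 96 seeds had no UMI.

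Partner genes at 7d24h showed 9 lower and 1 higher of 11 tested small heat shock proteins in dog1-4 against Col-0 (median -2.42, against 0.03 over all genes), led by HSP17.4B (AT1G54050, -4.11) and HSP15.4 (AT4G21870, 2.86). HSP15.4 was near the limit of detection in Col-0 (3.90 ± 1.98 CPM at 7d24h). It met the filter on low counts mainly through dog1-4 at 7d24h, where it was highest, which limits its rises in dog1-4. At 3d 1 was lower, HSP23.6 (AT4G25200, -1.53, and -1.26 without the library with green-tissue transcripts), and no gene of the other lists was called. Of 17 co-chaperones, 4 were lower (most BAG6, -2.06) and 1 was higher, HOP1 (AT1G12270, 1.02). Of 11 relatives, 2 were higher (most MTHSC70-1, AT4G37910, the mitochondrial HSP70, 1.25), and of 8 heat shock factors 2 were lower (most HSFA9, -2.31) and HSFA1E (AT3G02990) was higher (1.53). Over recovery in dog1-4, at 7d24h against 3d, 9 small heat shock proteins fell and 1 rose (HSP17.4B -3.87, HSP15.4 2.65), 5 co-chaperones fell and 4 rose (HSA32 -3.46, HSP70-14, AT1G79930, 1.39), 1 relative fell and 8 rose (CLPB4 -1.37, MTHSC70-1 2.34) and 3 factors fell and 1 rose (HSFA9 -2.93, HSFA1E 1.80). In Col-0, 4 small heat shock proteins fell and 1 rose (HSP17.4, AT3G46230, -2.16, and HSP15.4 with 3.90 ± 1.98 CPM at 7d24h and 0.185 ± 0.321 CPM at 3d, near the limit of detection), 5 co-chaperones fell (HSA32 -2.63), 1 relative fell and 4 rose (CLPB4 -1.11, HSP90.7 1.99) and 1 factor fell (HSFC1, AT3G24520, -1.53). The interaction called 2 small heat shock proteins (most HSP26.5, -2.46), 2 co-chaperones (most FKBP62, AT3G25230, 1.08), 1 relative (CPHSC70-2, AT5G49910, 1.52) and 2 factors (HSFA9 -2.13, HSFA1E 1.80). Without the library with green-tissue transcripts, an alternative chosen after its values had been seen, the same genes of these lists were called over recovery in dog1-4 (40.4% of all genes passed). The interaction then called 11% of all genes and 9 of 11 small heat shock proteins, all lower, with HSP26.5 at -2.84. Of the co-chaperones 3 others were then called lower (most BAG6, -1.85), while FKBP62 (0.98) and J2 (0.93) were under the fold limit, and calls of 1 more relative (MTHSC70-1, 1.17) and 1 more factor (HSFC1, -1.45) were added.

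The last comparison asked whether dog1-4 and Col-0 seeds already differ when dry. Of the 8 members that passed the filter on low counts, 1 was higher and 3 were lower in dog1-4 at an adjusted p under 0.05, the limit used here without a minimum fold. Of 9493 genes 4.78% were higher and 5.17% lower (9.95% in either direction). HSP101 had 149.5, 166 and 221 CPM in dog1-4 pools, against 535, 620.1 and 478 CPM in Col-0 pools, and was 3.04-fold lower (log2 fold change -1.60 ± 0.18, adjusted p = 1.62e-06). HSP90.1 had 97.0, 191 and 129 CPM in dog1-4, against 476, 449 and 382 CPM in Col-0, and was 3.11-fold lower (log2 fold change -1.64 ± 0.20, adjusted p = 5.71e-06). HSP70B had 597, 949.7 and 666 CPM in dog1-4, against 1759, 2389 and 1469 CPM in Col-0 (log2 fold change -1.34 ± 0.20, adjusted p = 7.99e-05). For these 3 genes no dog1-4 pool reached the lowest Col-0 pool.

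HSP70-3 differed in the other direction, with 117, 184 and 69.3 CPM in dog1-4, against 14.7, 24.0 and 20.9 CPM in Col-0, and was 6.42-fold higher (log2 fold change 2.68 ± 0.30, adjusted p = 2.34e-06). HSP70-4 did not differ beyond the spread of the pools, with 841, 1283 and 821 CPM in dog1-4 and 1023, 952 and 794 CPM in Col-0 (log2 fold change 0.09 ± 0.19, adjusted p = 0.859). HSP70-1 (log2 fold change 0.31 ± 0.17, adjusted p = 0.321), HSP90.2 (log2 fold change -0.26 ± 0.16, adjusted p = 0.397) and HSP90.3 (log2 fold change -0.03 ± 0.18, adjusted p = 0.957) had overlapping pools as well. HSP70-2 had 2, 4 and 1 counts in dog1-4 and 0, 3 and 0 counts in Col-0 and was not tested. Summed seed markers overlapped, at 125127 to 147471 CPM in dog1-4 and 116794 to 146323 CPM in Col-0, whereas green-tissue markers were 64.2 to 106 CPM in dog1-4 and 19.0 to 36.9 CPM in Col-0, and the part of that list in these differences was not tested.

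**Figure D5:**
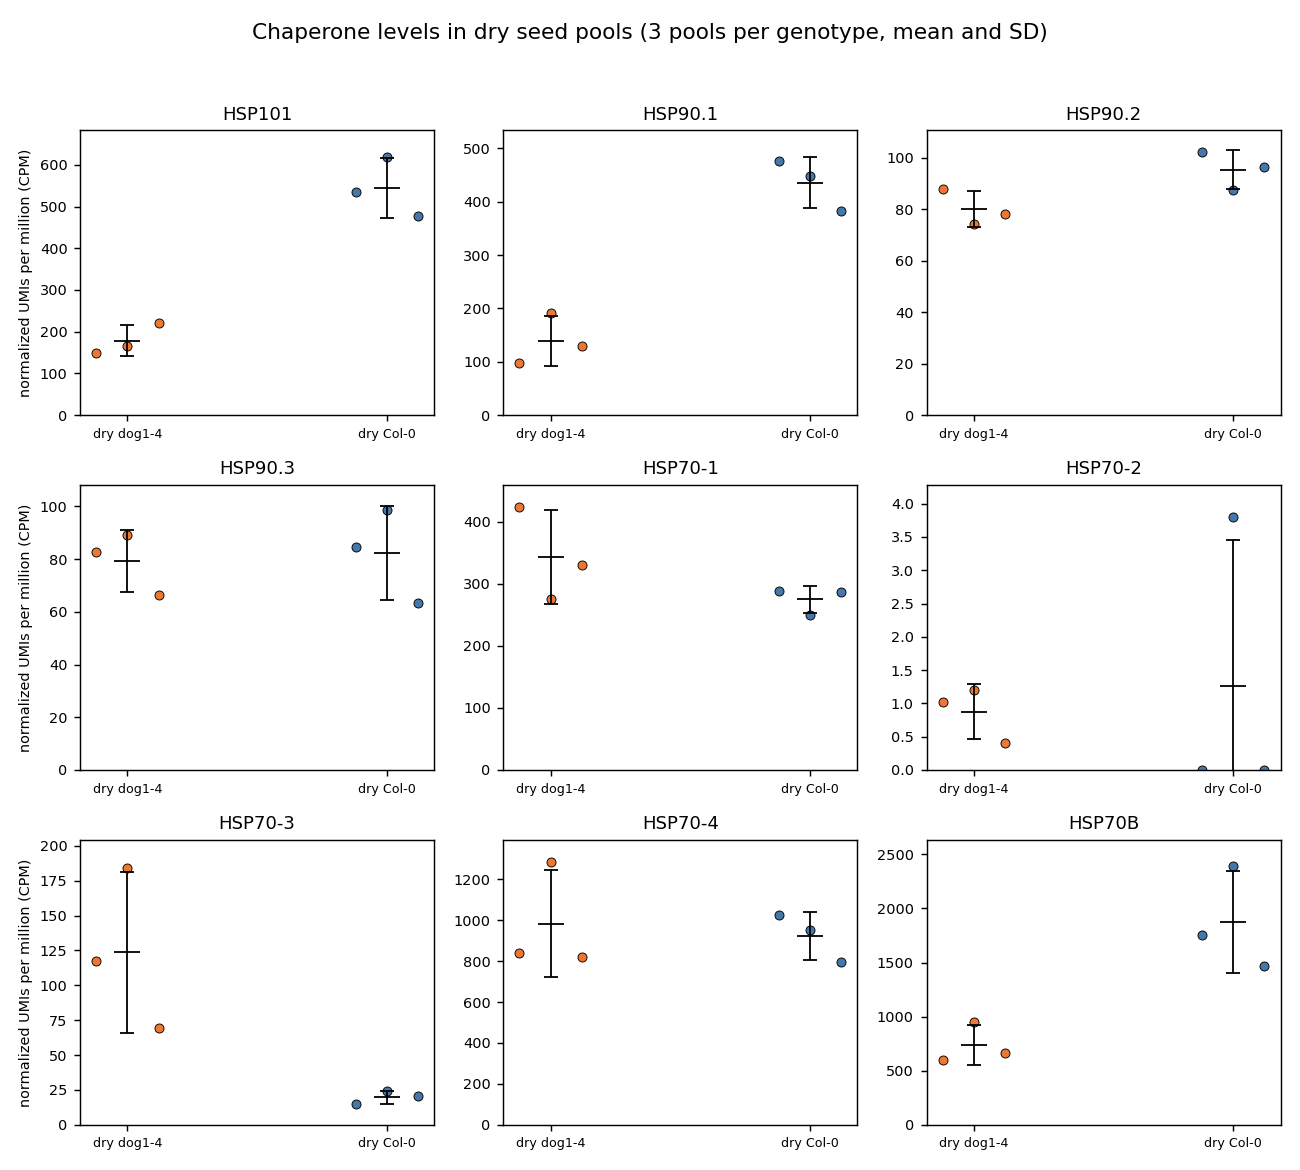
Levels of the 9 chaperone genes in normalized CPM (y axes, linear, from 0) in dry seed pools of dog1-4 (orange, left) and Col-0 (blue, right). Each point is a pool, and bars are the mean ± SD of 3 pools. HSP101, HSP90.1 and HSP70B were lower in all dog1-4 pools, HSP70-3 was higher, and HSP70-2 was at 4 counts or fewer in every pool.

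Partner genes in dry seeds showed 13 of 13 tested small heat shock proteins lower in dog1-4 (median log2 fold change -2.01, against 0.01 over all genes), the widest gap being that of HSP17.6II (AT5G12020, 0.373 ± 0.415 CPM in dog1-4 and 25.7 ± 4.57 CPM in Col-0, SD, n = 3 each). Of 17 co-chaperones 4 were lower (most BAG6, -3.08), of 9 relatives 2 were lower (most CLPB4, -1.54) and of 12 heat shock factors 2 were lower (most HSFA7B, AT3G63350, -2.12), and no gene of these lists was higher.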

How the data were processed

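Single seeds and dry seed pools were sequenced by 3′-end RNA-seq with UMIs. The authors' processing gave the deposited UMI counts per gene and seed (STAR 2.7.8a, TAIR10 genome, Araport11 genes, unique mappings, sense strand) and read counts per gene and dry pool after UMI deduplication (UMI-tools 1.1.0, HTSeq 0.11.3). Nuclear protein-coding genes were kept (27444), and so were seeds with at least 5000 UMIs on them (665 of 672 in the time course, 382 of 384 in the dog1-4 experiment). Counts were summed per library, so deeper seeds weigh more. The genes averaging 1 UMI or more in each seed (8763 and 11019), or passing filterByExpr in dry pools (9493), entered edgeR (version 4.0.16, R 4.3.3) and its quasi-likelihood test, with TMM scaling, 3 libraries per group, all groups of an experiment in 1 fit, Benjamini-Hochberg adjustment over all genes and two-sided p-values. SE is the size of the log2 fold change divided by the square root of F. Alternatives were DESeq2 1.42.0, other scalings, filters and seed minimums, a replicate block and leaving out each library.

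The members and the gene lists were chosen with earlier results of these data known. All 9 members are described, and from each list the called gene with the largest rise and the largest fall of a comparison was named. Excess variation is the squared coefficient of variation of seeds minus that expected from counting, in genes that averaged 1 UMI or more in every library compared. Intervals and p-values cover libraries, and the deeper libraries, with up to 4993365 UMIs, give the more precise values. A limit of 0.3 on a gene's correlation over seeds with all UMIs outside nuclear protein-coding genes served as an alternative only. It follows the study's gene filter in kind but is not that filter, whose measure of intergenic signal was not rebuilt here, and it left 679 genes and 4 of the 9 members in the dog1-4 experiment.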

Additional observations from a re-analysis of the deposited data

Results flagged for a closer look

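For 2 chaperones the change over recovery, at 7d24h against 3d, differed between dog1-4 and Col-0 by the interaction test of edgeR (4.07% of all genes passed it). HSP70B differed by -1.61 on the log2 scale, with a fall in dog1-4 and overlapping libraries in Col-0, and HSP90.2 differed by 1.16, with a larger difference between time points in dog1-4 than in Col-0. The HSP70B call was lost in 8 of 12 fits that left out 1 library (adjusted p up to 0.0771 by edgeR), and HSP90.2 was called in all 12. In the time course, scaled separately, every Col-0 library had less HSP70B at 7d24h (91.2, 89.7 and 93.4 CPM) than at 3d (172, 121 and 246 CPM). Those 7d24h levels lay within the 62.9 to 96.7 CPM of dog1-4 and below the 254 to 417 CPM of Col-0 in the dog1-4 experiment. The HSP90.2 libraries of dog1-4 at 7d24h, at 401 to 465 CPM, lay above every other HSP90.2 library of that experiment.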

How the results depend on the processing

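Of the counts of called members, 139 of 149 alternative values stayed within 1.5 times the count reported. The exceptions were, at 7d against 5d, 6 members without a minimum fold, 6 with no filter on low values and 6 with filterByExpr (3 reported), at 3d against 1d, 4 with no filter (7 reported), and, at 7d against the pool-split control, 1 by DESeq2 (2 reported). The correlation limit left 2 called in Col-0 over recovery (6 reported), 2 in dog1-4 over recovery (8 reported) and 0 in the interaction (2 reported). Under that limit 3 values of single members reversed, HSP101 in Col-0 (0.31), HSP90.1 in dog1-4 (0.36) and HSP70B in dog1-4 (0.62), all at 7d24h against 3d. By its construction the limit left 679 genes to scale and test with in that experiment, and 5 of the 9 members were removed by it (HSP90.2, HSP90.3, HSP70-1, HSP70-3 and HSP70-4, with r of 0.32 to 0.59), so part of the lower counts is built in. The cause of the other changes was not tested. With seeds thinned to 5000 UMIs, 7d and the control did not overlap in excess variation for 1 of 3 members examined (2 of 7 reported, neither passing a test). Leaving out 1 library gave 1 to 3 calls in the interaction and 2 to 4 members without overlap in variation. Among 689 values of single members with an adjusted p under 0.05 (and HSP101 at 3d and in the interaction), 637 stayed as reported, 20 lost and 29 gained the threshold. Of 408 values without 1 library, 377 stayed, 23 lost and 8 gained it.

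Replicate numbers were not used to pair samples, as mean correlations between same-numbered libraries were low, at 0.0618, 0.116 and -0.0678 in the 3 experiments. Between libraries of different numbers they were -0.031, -0.0613 and 0.034. In the dog1-4 experiment 10 of 18 same-numbered pairs were over 0.1. HSP101 and HSP90.1 also fell from replicate 1 to 2 and from 2 to 3 in every group of that experiment. Whether the numbers mark shared batches was not tested. A replicate block called 1 member in dog1-4 against Col-0 at 3d (HSP101, -1.04, adjusted p = 0.0171) and 3 in the interaction (HSP101 -2.11, adjusted p = 0.00199), and moved no other count by over 1.5 times. Without TMM scaling all genes shifted by up to 0.63 on the log2 scale, and with the size factors of DESeq2 by less than 0.06. Depth limited HSP70-2 and HSP70-3, which had under 2 UMIs per seed before recovery, so small differences of these genes were not detectable.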

Other observations

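The 1d seed with 1291 CPM of HSP70B was also the highest of the 96 seeds for 5 of 5 small heat shock proteins that averaged 1 UMI or more at 1d, for example HSP17.4 at 2147 CPM (median seed 104 CPM) and HSP17.6A at 1137 CPM (median seed 90.0 CPM). It was the highest for 5 of 11 organellar and endoplasmic reticulum relatives, among them BIP1 at 358 CPM (median 98.9 CPM), BIP2 at 294 CPM (median 49.1 CPM) and MTHSC70-1 at 153 CPM (median 42.2 CPM). It was the highest for 0 of 16 co-chaperones, 0 of 6 heat shock factors and 0 of 14 seed markers. CRA1, a cruciferin, stood lowest of the 96 seeds in it, at 17379 CPM against a median of 86012 CPM, and CRU3 as well, at 10977 CPM against a median of 37445 CPM. Other seed markers were high in it, among them the albumins SESA3 (12025 CPM, median 804 CPM) and SESA4 (1533 CPM, median 148 CPM), both second highest of the 96 seeds, and CRU2 was near its median (984 CPM, median 976 CPM). The seed was singled out by its HSP70B level after its values had been seen, and the 9 chaperones were chosen for other reasons.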
